A study of Homo sapiens with 29 samples.

Results

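EndoC-βH1 cells kept in medium that carried mutant CEL (MUT, 10 samples) were compared with the same cells kept in either of the other media of the study. Those were medium from empty-vector cells (EV, 9 samples) and medium with wild-type CEL (WT, 10 samples), and the contrast sets MUT against the mean of both. Samples were assigned by their labels alone, all 29 samples of the series entered, and 20672 gene entries passed a filter on low counts. EndoC-βH1 is a line of human β-cells, the insulin-making cells of the pancreas. The media came from HEK293 cells, a human embryonic kidney line, which carried a stably overexpressed construct of 1 of the 3 kinds and conditioned β-cell medium for 3 hours. That medium was filtered, brought to equal protein and given fresh each day for 10 days. Which mutation was used is not stated in these sources. Batch 1 held 3 EV, 4 WT and 4 MUT samples, and batches 2 and 3 held 3 of each.

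The CEL gene encodes carboxyl ester lipase, which acinar cells of the pancreas release to digest fats, and its mutations underlie MODY8, an inherited form of diabetes. Disease variants of the protein tend to misfold and aggregate, and aggregates can be taken up by other cells. A cell that has to fold more secretory protein than its endoplasmic reticulum (ER) can manage turns on the unfolded protein response, in which the sensors IRE1, PERK and ATF6 raise ER chaperones, enzymes that degrade misfolded protein and, with lasting stress, cell death factors. β-cells lean on this response in ordinary life because proinsulin is a large part of what they make.

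The samples held 26.2 to 40.2 M estimated counts each. The 10 β-cell markers checked were detected in all media. Their summed level was 11090 to 16170 CPM in EV samples, 11060 to 21160 in WT and 11140 to 21890 in MUT. CPM in these marker levels means counts relative to the library total, with no TMM scaling. Of 11 acinar markers, 8 were under 0.1 CPM on average over all samples, as were 7 of 10 fibroblast, 6 of 10 leukocyte and 4 of 10 ductal markers. Others were well above that, with CPA1 (acinar) at 32.1, KRT19 and ANXA4 (ductal) at 45.8 and 41.5 and CD68 (macrophage) at 52.2 CPM over all samples. CEL itself averaged 4.95 CPM, where CPM from here on is scaled by TMM. CEL did not differ beyond the spread, with a log2 fold change of -0.20 ± 0.13 (SE) and an adjusted p of 0.35.

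Across the 29 samples many genes differed slightly between MUT medium and the other media. None passed when the batch was taken as the replicate, as given below. An edgeR quasi-likelihood test with batch in the model called 722 genes (3.49%) at a Benjamini-Hochberg adjusted p under 0.05, of which 435 rose (2.1%) and 287 fell (1.39%). Scaled by total library size alone, 244 were higher and 315 lower. Among genes that rose, the smallest p-values were those of MANF, a protein of the endoplasmic reticulum, and CDH2, a cell adhesion molecule. Those that fell included the long noncoding RNA MEG3 and the calcium channel gene CACNA1A. The median size among the 722 was 0.17 on the log2 scale. Only 30 exceeded 1.5-fold, and of those PHRF1 alone averaged at least 5 CPM. In the same fit 1160 genes passed against EV alone and 184 against WT alone, contrasts that share the MUT samples, and 70 passed between WT and EV.

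The batches carried very unequal parts of this. Fitted alone, batch 1 gave 200 genes (0.955%; 46 higher and 154 lower), batch 2 gave 8792 (42.7%; 4501 higher and 4291 lower) and batch 3 gave 141 (0.692%; 104 higher and 37 lower). The change differed between batches for 8844 genes (42.8%) by the test of the interaction, 446 of the 722 among them. Among the 722 the median size was 0.14 in batch 1, 0.32 in batch 2 and 0.05 in batch 3, and 592 had their largest change in batch 2. One sign in every batch was seen for 292 of the 435 that rose and 215 of the 287 that fell. Over all genes tested, 8.99% were higher and 9.55% lower in every batch. The pooled test rests on the same samples, so these shares are a description.

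Whether samples of 1 batch and medium are separate cultures is not given in the labels, so these p-values measure a spread between samples that may be technical. With 1 summed profile per batch and medium, the edgeR test had 4 residual degrees of freedom and called 0 genes, with 477 (2.31%) at an unadjusted p under 0.05 and a smallest adjusted p of 0.972. With limma voom and a correlation of 0.441, estimated between samples of 1 batch and medium, 0 were called, with 1590 at an unadjusted p under 0.05 and a smallest adjusted p of 0.29. DESeq2 over the 29 samples called 1583. Without batch 2 the edgeR test called 0 genes, with 2896 at an unadjusted p under 0.05 and a smallest adjusted p of 0.0505. All 717 of the 722 genes that could be fitted there kept their direction, 491 of them at an unadjusted p under 0.05. The 722 were chosen by a test that includes these same samples, so this is a description.

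**Figure D1:**
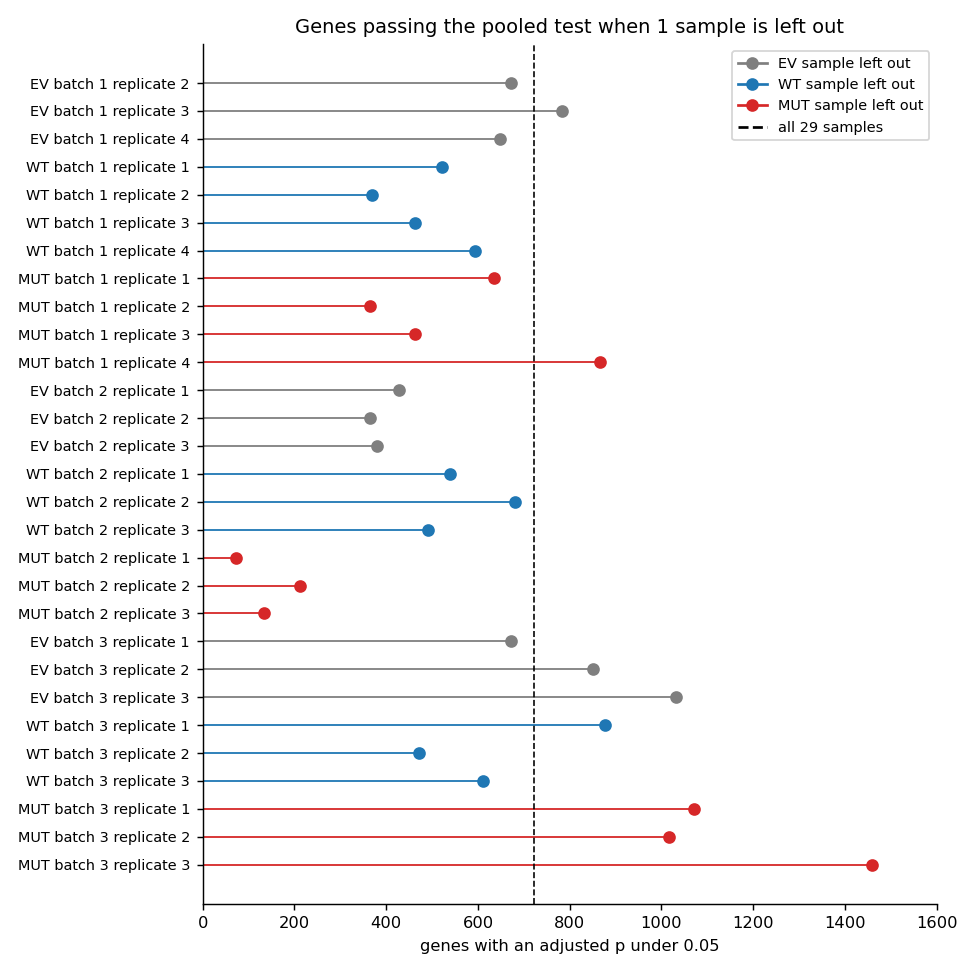
Number of genes with an adjusted p under 0.05 (x axis) when the sample named on the y axis is left out, coloured by its medium. The dashed line is the count with all 29 samples (722), and the count was lowest, 72, without MUT sample 1 of batch 2 and highest, 1459, without MUT sample 3 of batch 3.

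The number of genes that passed moved with single samples, as the plot of counts without each sample shows. It fell to 72, 211 and 134 without MUT samples 1, 2 and 3 of batch 2. It was 427, 365 and 380 without EV samples 1, 2 and 3 of that batch. In batch 1 it was 364 and 463 without MUT samples 2 and 3, and 368 and 462 without WT samples 2 and 3. In batch 3 it was 471 without WT sample 2 and 1459 without MUT sample 3. Of the 77 passing genes named here, 22 passed without each of the 29 samples in turn. They are MEG3, TMEM230, RPN1, MANF, HSPA5, CACNA1A, TSPAN7, MC1R, CDH2, PDGFD, LTK, COL24A1, CBLN2, GSTM3, ARG2, DHCR7, PHRF1, SULT4A1, ZNF783, AHSA2P, PRCP and PRG4. The other 55 lost the call without at least 1 sample, and for 54 of these a MUT sample of batch 2 was among them.

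Genes were also counted whose MUT samples all lay on one side of every other sample of their batch. In batch 1 this held for 937 genes (4.53%; 449 above and 488 below), in batch 2 for 5602 (27.1%; 2877 and 2725) and in batch 3 for 2190 (10.6%; 1243 and 947). In all 3 batches it held for 3 genes (0.0145%), namely MEG3 below, and TMEM230 and RPN1 above. They were 3 of the genes that also passed the pooled test without each sample. The count was 6 without EV sample 2 or 4 of batch 1, and 5 without EV sample 3 of batch 1, MUT sample 1 of batch 1, MUT sample 2 of batch 2 or WT sample 1 of batch 3. It was 7 without MUT sample 4 of batch 1, or MUT sample 1 or 3 of batch 3. MEG3, TMEM230 and RPN1 were in each of these sets, which are larger partly by construction, since fewer samples have to stand apart. With no filter on low counts there were 5, with TMBIM6 and TSPAN7 added. When only total library size was used for scaling, TMEM230 was not among them, and with a stricter filter RPN1 was not.

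**Figure D2:**
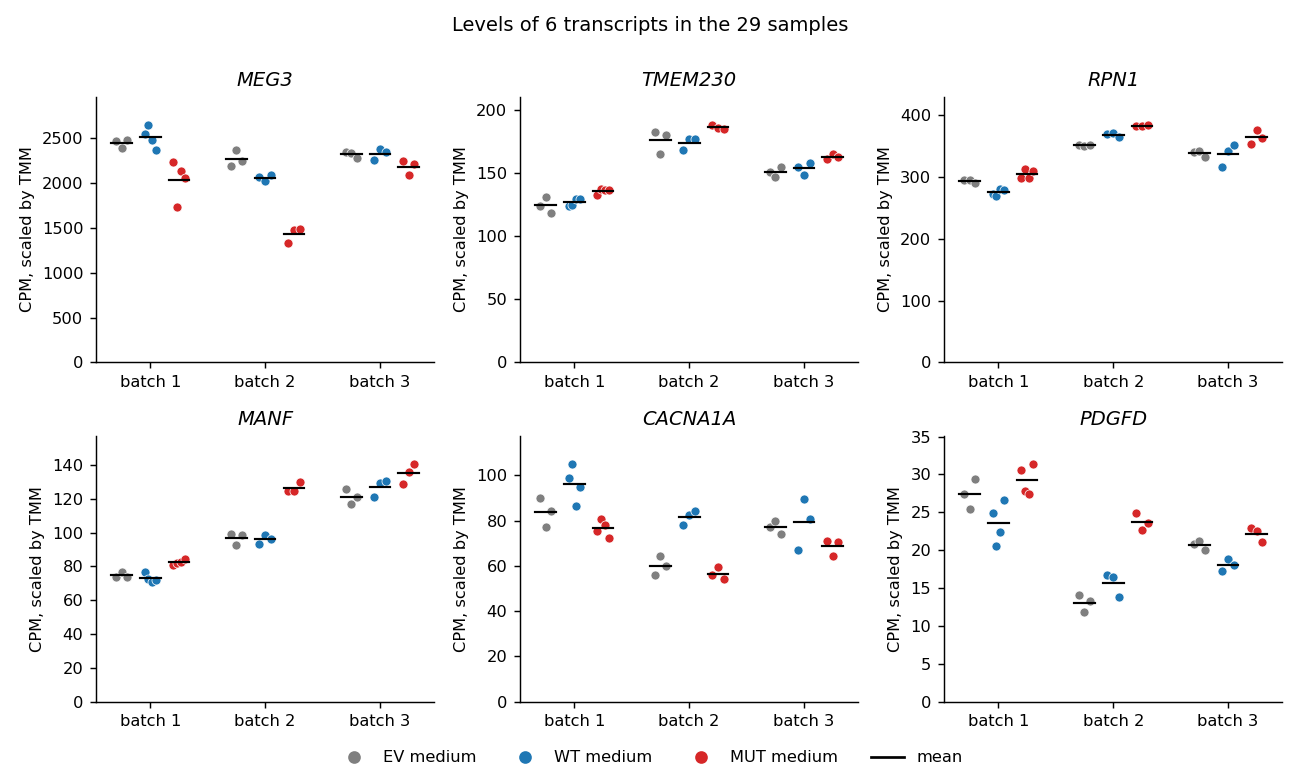
CPM scaled by TMM (y axis, from 0) of 6 transcripts in each of the 29 samples, by batch (x axis) and medium (colour), with the mean of each batch and medium as a black line. MEG3 lies lower and TMEM230 and RPN1 higher in every MUT sample than in any other sample of the batch, and the MEG3 and PDGFD differences are widest in batch 2.

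MEG3 is an imprinted long noncoding RNA gene of the DLK1-MEG3 locus, transcribed from the maternal chromosome and abundant in human β-cells. In batch 1 the MUT samples held 1730, 2062, 2131 and 2236 CPM, against 2398 to 2483 in EV and 2372 to 2648 in WT. In batch 2 they held 1335, 1479 and 1484 CPM, against 2187 to 2371 in EV and 2024 to 2087 in WT. In batch 3 the MUT samples held 2086, 2214 and 2253 CPM, just under the lowest other value of 2264, which was a WT sample. No MUT sample of any batch overlapped the other samples, but the gap in batch 3 was small. The log2 fold change was -0.32 ± 0.05 (adjusted p 0.0035), with -0.28, -0.59 and -0.10 in batches 1, 2 and 3, and the size differed between batches (interaction adjusted p 3.2e-05). Against EV it was -0.33 and against WT -0.30. DLK1, of the same locus, did not pass the pooled test. In batch 2 its MUT samples were also below the others, at 20.98 to 22.91 CPM. There EV samples held 30.96 to 35.24 and WT samples 31.19 to 35.08. In batches 1 and 3 its MUT samples lay inside the range of the others. The imprinted list as a whole did not fall. Of 19 imprinted genes tested, MEG3 fell, GNAS and PEG10 rose, and the list's median was 0.004 beside -0.001 for all genes. Among all genes tested 2.1% rose and 1.39% fell.

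RPN1 encodes ribophorin I, a subunit of the oligosaccharyltransferase that attaches sugars to new proteins as they enter the ER. In batch 1 the MUT samples held 298.1, 298.6, 310.7 and 312.7 CPM, above all EV (290.3 to 295.1) and WT samples (270.0 to 281.3). In batch 2 they held 383.2, 383.3 and 384.3 CPM, above EV (350.3 to 352.2) and WT (365.2 to 371.4). In batch 3 they held 353.3, 363.1 and 376.5 CPM, and the highest other sample was a WT sample at 352.7. RPN1 was therefore separated in each batch by a narrow margin and a like amount. Its log2 fold change was 0.10 ± 0.02 (adjusted p 0.014), or 0.10, 0.09 and 0.10 by batch, and the interaction did not pass (adjusted p 0.95).

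TMEM230 encodes a small membrane protein of secretory and endosomal vesicles. The MUT samples held 132.8 to 137.2 CPM in batch 1, 184.8 to 187.8 in batch 2 and 161.2 to 164.9 in batch 3. The other samples reached at most 131.2, 182.6 and 158.0 CPM in those batches. The 3 batches again gave nearly the same change of 0.11, 0.09 and 0.09, pooled 0.10 ± 0.02 (adjusted p 0.014), although the level itself differed between batches. With no filter on low counts TMEM230 did not pass the pooled test.

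A wider set was drawn up after the data were seen: genes with an unadjusted p under 0.05 and one direction in each batch fitted alone. It held 48 genes (0.232%), 27 higher and 21 lower, with sizes from 0.10 to 0.56 and a median of 0.20 on the log2 scale. Of these, 43 passed the pooled test, and the interaction did not pass for 38. The count was 18 without MUT sample 2 of batch 3, and 28 without either MUT sample 3 or EV sample 1 of that batch. Among the 27 higher genes, 26 are protein coding, against 12 of the 21 lower ones. The higher genes include MANF, RPN1, TMEM230, TMBIM6 and GORASP2 of the secretory pathway, TSPAN7 and PCSK2 of the insulin granule, PDGFD, LRATD1, ARG2, SGPP2, KDM4A and PBX3. The lower ones include MEG3, CACNA1A, KCNH8, COL24A1, LTK, BTNL9, SAT1 and AHSA2P.

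**Figure D3:**
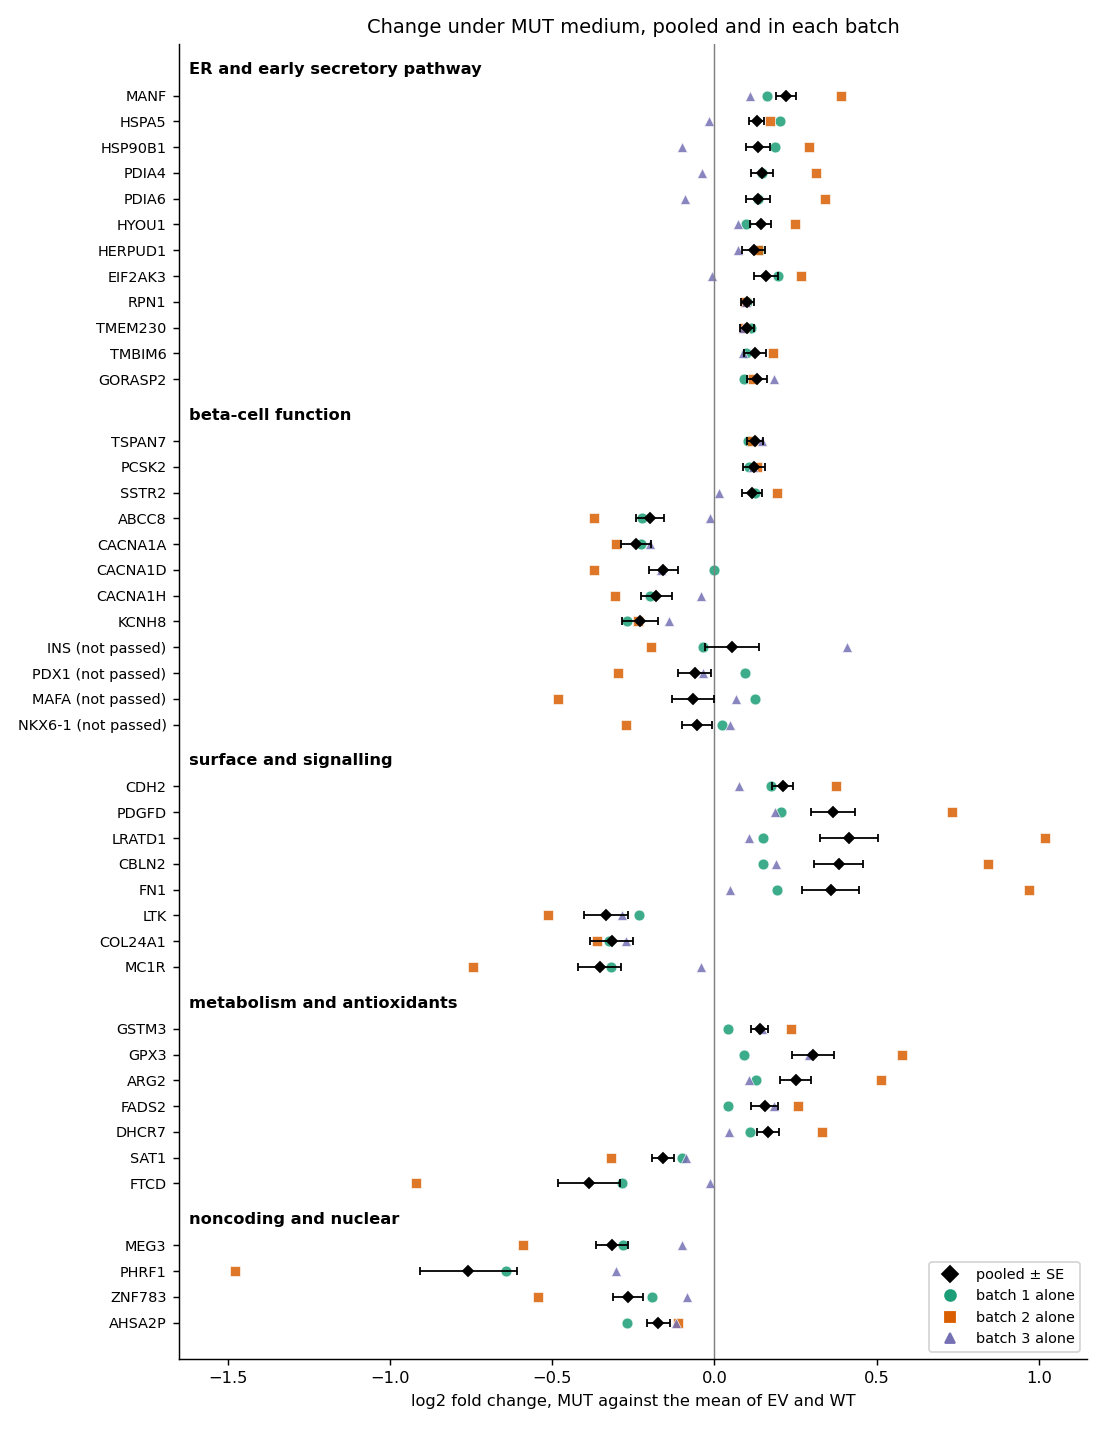
Log2 fold change of MUT against the mean of EV and WT (x axis) for named genes (y axis) grouped by role, with the pooled estimate ± SE as a black diamond and each batch fitted alone as a coloured symbol. RPN1, TMEM230, TSPAN7, PCSK2, CACNA1A and COL24A1 have 3 batch values close together, while HSPA5, ABCC8, MC1R and FTCD lie near 0 in batch 3.

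The ER chaperones and folding enzymes were the pathway list with the most passing genes. Of its 20 members 6 rose and none fell: MANF, HSPA5, HSP90B1, PDIA4, PDIA6 and HYOU1, where 2.1% of all genes tested rose. The list's median was 0.07 and 15 members lay above 0, beside a median of -0.001 and 10206 of 20672 genes above 0 overall. By batch the median was 0.13, 0.12 and -0.02, with 19, 13 and 7 of 20 members above 0, so batch 3 did not share it.

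MANF, a secreted ER protein that eases ER stress and protects β-cells, had the smallest p of all genes tested. The MUT samples held 80.94 to 84.49 CPM in batch 1, where EV samples held 73.58 to 76.82 and WT samples 70.93 to 76.58. In batch 2 they held 124.4 to 129.8 CPM against 92.55 to 99.15 and 93.03 to 98.92. In batch 3 they held 128.8, 136.2 and 140.4 CPM and overlapped WT, which reached 130.8. MUT was thus apart from both media in batches 1 and 2 only. The log2 fold change was 0.22 ± 0.03 (adjusted p 0.0011), with 0.16, 0.39 and 0.11 by batch, and it was 0.23 against EV and 0.22 against WT.

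HSPA5 encodes BiP, the main ER chaperone of the HSP70 family, which also holds the stress sensors inactive. The MUT samples held 522.6 to 557.7 CPM in batch 1, above all others (458.8 to 481.0). In batch 2 they held 869.1 to 899.3 CPM, above all others (761.5 to 818.6). In batch 3 they held 810.2 to 834.4 CPM, inside the range of the others (797.3 to 870.8). HSPA5 therefore rose in the first 2 batches and lay within the range of the others in batch 3, with 0.20, 0.17 and -0.02 by batch, 0.13 ± 0.02 pooled (adjusted p 0.014) and an interaction adjusted p of 3e-04.

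The other 4 chaperones had this pattern in part. HSP90B1, the ER form of HSP90, rose by 0.14 ± 0.04, with 0.19, 0.29 and -0.10 by batch. The disulfide isomerases PDIA4 and PDIA6 rose by 0.15 ± 0.03 and 0.13 ± 0.04 and were at -0.04 and -0.09 in batch 3. HYOU1, a chaperone of the HSP110 family, rose by 0.14 ± 0.03 and kept its sign, with 0.10, 0.25 and 0.07. Leaving out samples in turn ended the call of HSP90B1 for 18 of the 29 samples and of PDIA6 for 13. PDIA4 lost it without MUT sample 1 or 3 of batch 2, and HYOU1 without any MUT sample of batch 2. Calreticulin (CALR) was at -0.01, calnexin (CANX) at 0.06 and the co-chaperone SDF2L1 at -0.02, none of which passed.

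**Figure D4:**
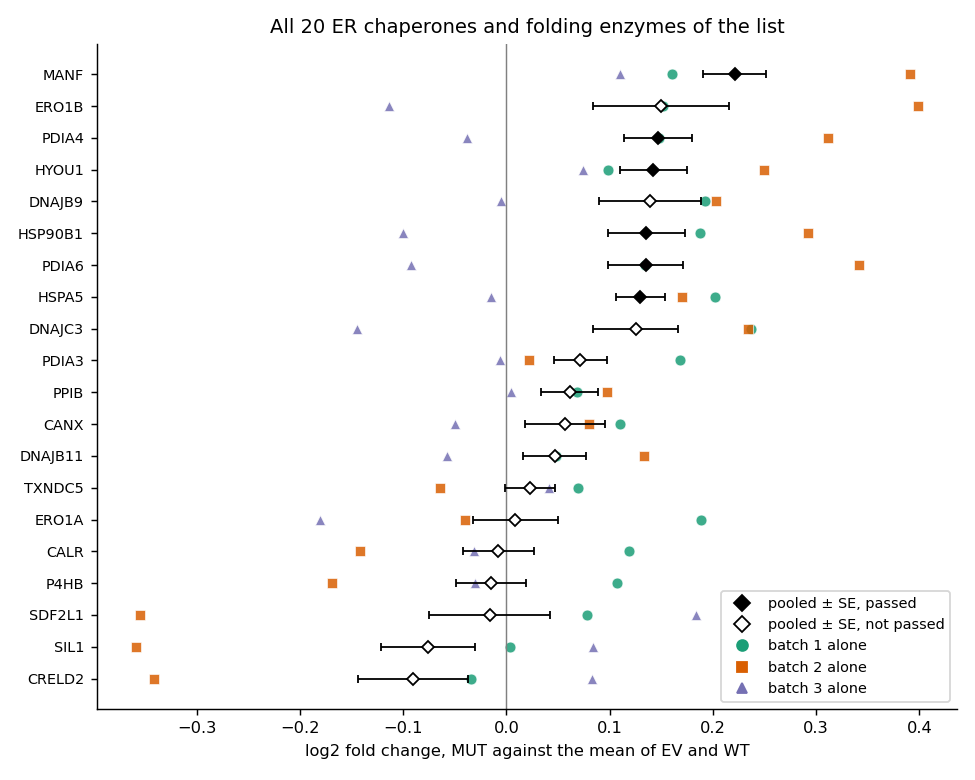
Log2 fold change of MUT against the mean of EV and WT (x axis) of all 20 listed ER chaperones and folding enzymes (y axis), pooled ± SE as diamonds (filled where the adjusted p is under 0.05) and by batch as coloured symbols. The 6 filled diamonds lie between 0.13 and 0.22, and most batch 3 symbols lie at or below 0.

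Several of these genes carry a known control sequence of the unfolded protein response. ATF6 and NF-Y bind the ER stress response element (ERSE), CCAAT and CCACG with 9 bases of any kind between them. A shorter form, ERSE-II, is ATTGG and CCACG with 1 base between them, and both were searched on both strands. The sequences come from RefSeq (GRCh38.p14) and were searched from 250 bases before to 50 after each start, 300 in all. The windows below are those of the passing ER genes with a match, and capitals mark the matched letters, which on the other strand read CGTGG and ATTGG, or CGTGG and CCAAT.
HSPA5 (chr9:125241371-125241429, minus strand): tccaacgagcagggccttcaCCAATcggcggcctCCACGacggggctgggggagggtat
HSP90B1 (chr12:103930196-103930359, plus strand): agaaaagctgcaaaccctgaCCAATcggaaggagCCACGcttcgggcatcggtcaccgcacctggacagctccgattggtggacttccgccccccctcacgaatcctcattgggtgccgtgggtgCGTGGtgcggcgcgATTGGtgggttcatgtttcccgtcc
PDIA6 (chr2:10812833-10812891, minus strand): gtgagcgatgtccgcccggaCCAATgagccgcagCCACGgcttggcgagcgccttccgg
HYOU1 (chr11:119057254-119057410, minus strand): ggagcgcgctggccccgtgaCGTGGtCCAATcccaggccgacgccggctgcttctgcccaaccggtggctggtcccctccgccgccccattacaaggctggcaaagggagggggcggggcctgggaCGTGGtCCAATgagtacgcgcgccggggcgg
HERPUD1 (chr16:56932005-56932055, plus strand): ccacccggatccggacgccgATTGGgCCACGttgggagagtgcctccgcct

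HSPA5 and PDIA6 hold 1 ERSE each, HSP90B1 holds 2 in opposite orientation, HYOU1 holds 2 ERSE-II and HERPUD1 holds 1. These letters are rare: of 27305 symbols with a promoter in the table, 25 (0.0916%) hold an ERSE and 19 (0.0696%) an ERSE-II. In the chaperone list 7 of 19 members with a promoter hold an ERSE and 2 an ERSE-II. Having the element did not go with passing the test in every case. CALR, CANX, CRELD2, ERO1B, SDF2L1 and XBP1 hold one and did not pass, while MANF and PDIA4 passed with no match in this window. Of 12788 tested genes with a promoter, 16 hold an ERSE, of which HSP90B1, HSPA5 and PDIA6 rose and TRIM5 fell. Another 16 hold an ERSE-II, of which HERPUD1, HYOU1 and ZNF143 rose and none fell. Among all genes tested 2.1% rose and 1.39% fell. Most tested genes with an element thus did not pass. A match describes the letters and is not evidence of binding here.

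In the other branches of the unfolded protein response fewer genes passed. Of 20 genes of ER-associated degradation, which sends misfolded proteins to the proteasome, 3 rose, where 2.1% of all genes tested rose. They were HERPUD1, a membrane scaffold of the degradation machinery (0.12 ± 0.03), SELENOK and FAF2. HERPUD1 lost its call without any of 20 of the 29 samples, SELENOK without any of 14 and FAF2 without MUT sample 1 or 3 of batch 2. In the PERK and ATF4 arm none of 19 genes passed, and the median was -0.05, with 0.075 against EV and -0.113 against WT. ATF4 was at 0.02 and the stress factor DDIT3, which encodes CHOP, at -0.07. XBP1, the target of IRE1, was at 0.02, with 0.13, -0.11 and 0.01 by batch, and gene counts do not show its splicing. DNAJB9, an IRE1 target, was at 0.14 ± 0.05 and did not pass (adjusted p 0.10). EIF2AK3, which encodes the PERK kinase itself and was in no list, rose by 0.16 ± 0.04, with -0.01 in batch 3. It lost its call without MUT sample 1 or 3 of batch 2.

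Of 20 genes of translocation and signal peptide processing, SSR1, a subunit of the translocon-associated complex, rose by 0.16 ± 0.04, and 18 of 20 lay above 0. That 1 of 20 is near the 2.1% of all genes that rose. Of 20 genes of COPII and Golgi transport, the cargo adaptor MCFD2 (0.11), the SNARE SEC22B (0.10) and the coat regulator ARF4 (0.14) rose, and all 20 lay above 0. The medians were 0.05 and 0.07, and both were below 0 in batch 3. The Golgi stacking protein gene GORASP2, in none of these lists, rose by 0.13 ± 0.03 and was highest in batch 3 (0.09, 0.12 and 0.18). In batch 2 its MUT samples (136.1 to 144.0 CPM) overlapped WT (139.3 to 144.9) and not EV (116.8 to 121.1). TMBIM6, an ER membrane protein known as Bax inhibitor 1, rose by 0.13 ± 0.03. It too was shared with WT in batch 2, where MUT samples held 1008 to 1053 CPM, WT 999.1 to 1037 and EV 779.5 to 822.0. Leaving out samples ended the call for SSR1 with MUT sample 2 of batch 1 or any MUT sample of batch 2, for MCFD2 with any of 19 samples, for SEC22B with any of 14, and for ARF4 with MUT sample 1 or 3 of batch 2. It ended the call for GORASP2 with MUT sample 1 or 3 of batch 2 and for TMBIM6 with any of 12 samples.

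Since RPN1 was apart in every batch, the other subunits of the oligosaccharyltransferase were looked up after that was seen. Of 12 subunit genes 3 rose, where 2.1% of all genes tested rose. They were RPN1, the catalytic subunit gene STT3A (0.14 ± 0.04) and DAD1 (0.12 ± 0.03). RPN1 prompted the lookup, so its place in these counts was fixed beforehand. All 12 had a pooled change above 0, with 9, 9 and 7 above 0 in batches 1, 2 and 3 and a median of 0.07. STT3A was at 0.33 in batch 2 and -0.01 in batch 3, unlike RPN1. RPN2, the partner of RPN1, was at 0.04 and did not pass. STT3A lost its call without any of 8 samples and DAD1 without any of 13.

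INS, the insulin gene, did not pass. It held 11650 CPM on average with a log2 fold change of 0.05 ± 0.08, and by batch it was -0.04, -0.20 and 0.41. The β-cell transcription factor genes PDX1, MAFA and NKX6-1 were at -0.06, -0.07 and -0.05, and the glucose transporter gene SLC2A2 at -0.16, with none passing. Their lowest value was in batch 2 in each case. Of 18 β-cell transcription factors 2 rose, GLIS3 (0.23 ± 0.06) and SOX4 (0.28 ± 0.08), where 2.1% of all genes tested rose. Both were at 0.59 or more in batch 2 and near or below 0 in batch 3, and each lost its call without any of 13 samples. NEUROD1 was at 0.13 ± 0.04 and did not pass.

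Potassium and calcium channel genes were the pathway list with the most falling genes. Of 20 members 4 fell and none rose, where 1.39% of all genes tested fell. The list's median was -0.04, with 0.001 against EV and -0.067 against WT. CACNA1A encodes the pore of the P/Q-type calcium channel, which admits calcium that triggers insulin granule release. In batch 1 the MUT samples held 72.21 to 80.73 CPM, partly inside the EV range of 77.22 to 89.81 and below WT at 86.38 to 104.8. In batch 2 they held 54.39 to 59.64 CPM, inside or near EV at 55.80 to 64.37 and below WT at 77.99 to 84.07. In batch 3 they held 64.48 to 70.79 CPM, against 73.95 to 79.79 in EV and 66.87 to 89.71 in WT. CACNA1A therefore differed mostly from WT, by -0.35, and by -0.13 from EV, where it did not pass. Against both it was -0.24 ± 0.05 (adjusted p 0.014), with -0.23, -0.30 and -0.20 by batch.

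ABCC8 encodes SUR1, the sulfonylurea receptor of the ATP-sensitive potassium channel that links glucose metabolism to β-cell firing. It fell by 0.20 on the log2 scale (SE 0.04, adjusted p 0.017), with -0.22, -0.37 and -0.01 by batch. The MUT samples held 476.6 to 499.0 CPM in batch 1, where the other samples held 523.3 to 647.5, and 417.4 to 466.8 in batch 2, where the others held 501.1 to 626.1. In batch 3 they held 516.4 to 524.3 CPM, in the midst of the others at 473.5 to 578.1. Both first batches were separated and the last was not. Against EV alone ABCC8 did not pass, and it lost its call without MUT sample 1 of batch 2.

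The L-type channel gene CACNA1D and the T-type channel gene CACNA1H fell by 0.16 and 0.18 (SE 0.04 and 0.05). CACNA1D was at -0.00 in batch 1, and leaving out samples ended its call for 17 of the 29 and that of CACNA1H for 7. KCNH8, a voltage-gated potassium channel gene outside the list, fell by 0.23 (SE 0.05), with -0.27, -0.24 and -0.14 by batch. In batch 2 its MUT samples (17.02 to 18.06 CPM) lay with WT (16.81 to 17.55) and below EV (23.70 to 26.55). KCNH8 lost its call without any MUT sample of batch 2.

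Of 20 genes of hormones, processing and granule proteins, TSPAN7 and PCSK2 rose and none fell, and the median was 0.05. Among all genes tested 2.1% rose and 1.39% fell. TSPAN7 encodes a tetraspanin of insulin granules that is an autoantigen in type 1 diabetes, and it rose by 0.12 ± 0.02 (adjusted p 0.014), with 0.10, 0.11 and 0.15 by batch. Its MUT samples were above all others in batches 1 (203.9 to 218.4 CPM against 192.7 to 201.5) and 3 (321.7 to 341.6 against 272.3 to 307.8). In batch 2 they held 317.7 to 329.7 CPM, above EV and overlapping WT, which reached 323.1. PCSK2, the proinsulin convertase PC2, rose by 0.12 ± 0.03, with 0.11, 0.13 and 0.12, and lost its call without any of 13 samples. SYT13, an atypical synaptotagmin, was the single gene of 19 of the exocytosis machinery to rise (0.17 ± 0.04), which is near the share of all genes. SYT13 was at 0.00 in batch 3. It lost its call without MUT sample 2 of batch 1 or any MUT sample of batch 2.

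Among receptors that tune secretion, 1 of 20 listed G protein-coupled receptor genes rose and 2 fell. The shares of all genes tested were 2.1% and 1.39%. SSTR2, the somatostatin receptor through which δ-cells restrain β-cells, rose by 0.12 ± 0.03, while SSTR5 fell by 0.35 (SE 0.10). MC1R, a melanocortin receptor gene, fell by 0.35 (SE 0.07), with -0.32, -0.74 and -0.04 by batch. SSTR2 lost its call without any of 10 samples and SSTR5 without any of 22. GNAS, which encodes the stimulatory G protein downstream of incretin receptors, is among the most abundant of these transcripts at 6622 CPM and rose by 0.16 ± 0.04, with 0.08, 0.26 and 0.14. It lost its call without MUT sample 1 or 3 of batch 2.

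CDH2 encodes N-cadherin, which joins β-cells to their neighbours, and rose by 0.21 ± 0.03 (adjusted p 0.0028), with 0.17, 0.37 and 0.08. Its MUT samples held 94.35 to 102.6 CPM in batch 2, where no other sample exceeded 78.33. In batches 1 and 3 they overlapped EV, with 133.1 to 137.1 against at most 133.3 and 91.80 to 95.71 against at most 92.54. PDGFD, a platelet-derived growth factor, rose by 0.37 ± 0.07 (adjusted p 0.014), with 0.20, 0.73 and 0.19. In batch 2 the MUT samples held 22.72 to 24.87 CPM against 11.79 to 16.70 in the others, and in the other batches they overlapped EV.

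Several larger rises were widest in batch 2. LRATD1 rose by 0.42 ± 0.09, with 1.02 in batch 2 and 0.15 and 0.11 in batches 1 and 3. The synaptic organiser gene CBLN2 rose by 0.38 ± 0.08, with 0.84 in batch 2, and fibronectin (FN1) by 0.36 ± 0.09, with 0.97. S100A4, a calcium-binding protein linked to cell movement, rose by 0.50 ± 0.14, with 0.00, 1.17 and 0.43. TGFB1 rose by 0.33 ± 0.09, the single gene of 13 TGF-β and YAP targets to pass, where 3.49% of all genes tested passed. LRATD1 lost its call without MUT sample 1 of batch 2, FN1 without any MUT sample of batch 2, S100A4 without any of 14 samples and TGFB1 without any of 13.

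LTK and COL24A1 passed the pooled test and lay below 0 in all batches. LTK, a receptor tyrosine kinase found in the ER membrane, fell by 0.33 (SE 0.07), with -0.23, -0.51 and -0.28, and its MUT samples were below all others in batch 3 (2.88 to 3.04 CPM against 3.16 to 4.12). COL24A1, a fibrillar collagen gene, fell by 0.32 (SE 0.07), with -0.33, -0.36 and -0.27, and was below all others in batch 2 (5.75 to 5.96 CPM against 6.00 to 9.12). The interaction passed for neither. Of 16 genes of axon guidance and synaptic adhesion, CNTN1 and SLIT2 rose and SEMA3C fell, where 2.1% of all genes tested rose and 1.39% fell. CNTN1, SLIT2 and SEMA3C changed mainly in batch 2 (0.53, 1.14 and -1.34). These 3 lost their calls without any of 11, 21 and 14 samples.

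Of 18 genes of the NRF2 and oxidative stress list, GPX2 (0.79 ± 0.17), GPX3 (0.30 ± 0.06) and PRDX1 (0.11 ± 0.03) rose, where 2.1% of all genes tested rose. The list's median was only 0.03. The glutathione peroxidase gene GPX2 went from 1.98 to 2.44 CPM in EV samples of batch 2 to 6.21 to 6.58 in WT and 9.88 to 11.3 in MUT, so that batch held 3 separate levels. In batch 3 its MUT samples held 2.40 to 2.59 CPM and the others at most 1.79. GSTM3, a glutathione transferase gene, rose by 0.14 ± 0.03, with 0.04, 0.24 and 0.15. GPX2 and GPX3 lost their calls without MUT sample 1 of batch 2, and PRDX1 without any of 20 samples.

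Lipid genes that rose were the desaturases FADS1 (0.09 ± 0.02) and FADS2 (0.16 ± 0.04) among 20 genes of fatty acid synthesis and lipid droplets, and DHCR7, the last enzyme of cholesterol synthesis (0.17 ± 0.03), among 20 of that pathway. Over all genes tested 2.1% rose, and 1 of 20 is near that share. Outside the lists, LPCAT3, which puts polyunsaturated chains into membrane phospholipids, rose by 0.11 ± 0.03, and SGPP2, a sphingosine phosphate phosphatase of the ER, by 0.15 ± 0.04. SGPP2 had 0.12, 0.13 and 0.20 by batch and LPCAT3 0.07, 0.13 and 0.14, so neither change was largest in batch 2. FADS1, LPCAT3 and SGPP2 lost their calls without MUT sample 1 or 3 of batch 2, and FADS2 without any of 6 samples. Of 20 autophagy and lysosome genes MAP1LC3B, WIPI2 and the lysosomal acid lipase gene LIPA rose by 0.10 each and 17 lay above 0, but these calls ended without any of 21, 12 and 19 samples. In amino acid and polyamine metabolism, ARG2, the mitochondrial arginase, rose by 0.25 ± 0.05, with 0.13, 0.51 and 0.11. SAT1, which acetylates spermidine and spermine for breakdown, fell by 0.16 (SE 0.03), with -0.10, -0.32 and -0.09, and lost its call without MUT sample 1 of batch 2.

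Protein-coding genes made up 94.7% of the genes that rose and 64.8% of those that fell, against 70.3% of all tested. Among genes with a mean of at least 5 CPM the shares were 96.2%, 74.3% and 87.8%. The lowest changes at that level were those of PHRF1, a ubiquitin ligase gene (-0.76 ± 0.15), and FTCD, an enzyme gene of histidine and folate metabolism (-0.39 ± 0.09). FTCD had -0.92 in batch 2 and -0.01 in batch 3, and lost its call without MUT sample 2 of batch 1 or any MUT sample of batch 2. PHRF1 samples scattered widely, from 5.91 to 21.2 CPM in EV and WT and from 3.20 to 12.1 in MUT. The zinc finger gene ZNF783 fell by 0.27 (SE 0.05) and SULT4A1, a brain-type sulfotransferase gene, by 0.31 (SE 0.05). AHSA2P, a pseudogene of a chaperone activator, fell by 0.17 (SE 0.04), with -0.27, -0.11 and -0.12. Fold changes ran with the GC content of the transcripts in each batch, with a Spearman correlation of -0.18 pooled (18872 genes). In batches 1, 2 and 3 the correlation was -0.37, -0.22 and 0.40 (18668, 18470 and 18460 genes). Genes share the libraries and are not replicates, and offsets that remove each sample's trend on GC content and length gave 1434 genes.

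**Figure D5:**
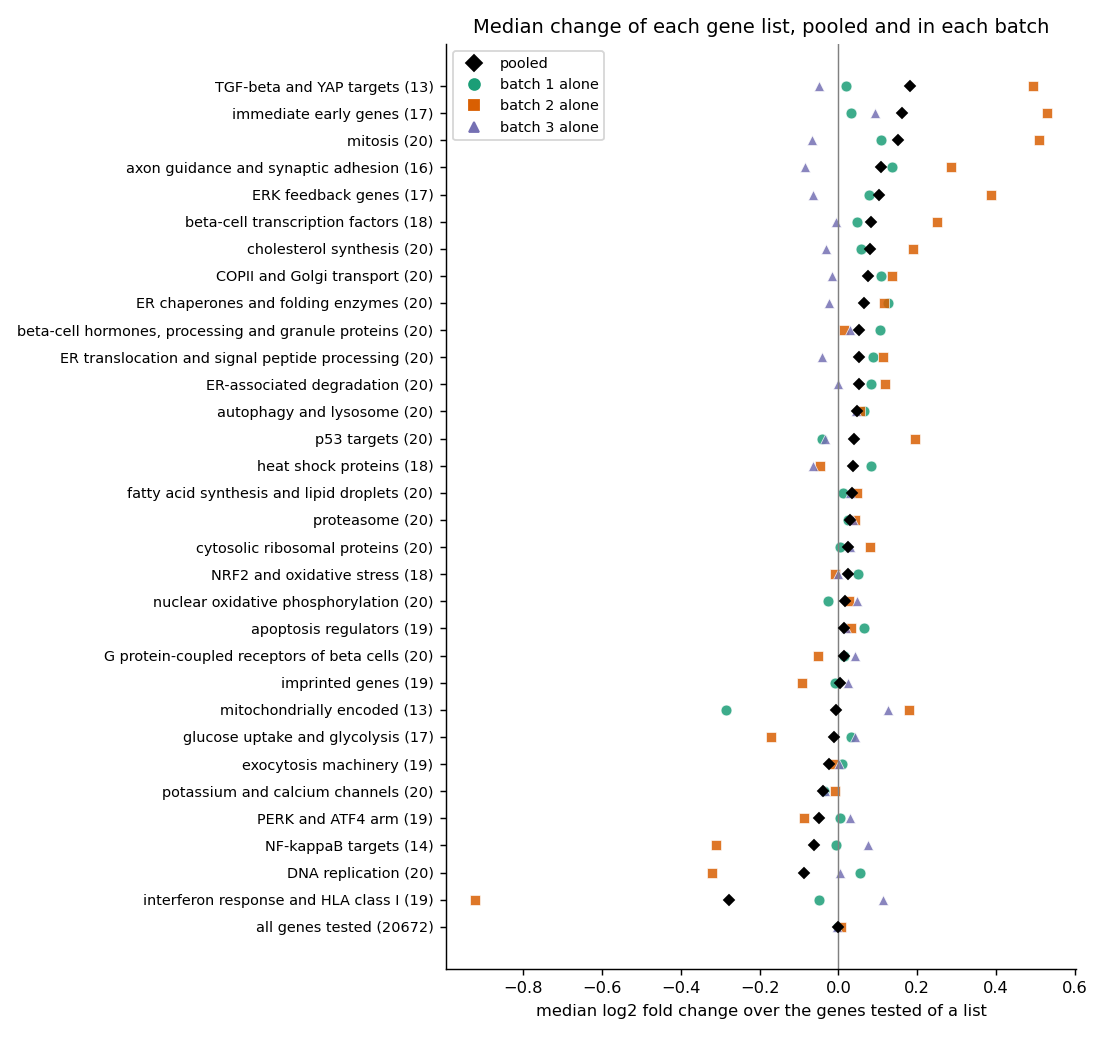
Median log2 fold change (x axis) of each pathway list (y axis, genes tested in parentheses), pooled as black diamonds and in each batch as coloured symbols, with all genes tested at the bottom. The widest medians, those of interferon, immediate early, mitosis, TGF-β and ERK feedback genes, are those of batch 2, and autophagy and proteasome genes lie slightly above 0 in every batch.

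Several lists had wide medians that came from batch 2. The interferon response and HLA class I list, with genes that β-cells raise under viral or immune attack, had a median of -0.28, with -0.05, -0.92 and 0.11 by batch. IFIT2 alone of its 19 genes passed, and fell. The mitosis list had a median of 0.15, with 0.11, 0.51 and -0.07, and the kinase gene AURKA and the cyclin gene CCNB2 rose among its 20 genes. Among all genes tested 2.1% rose and 1.39% fell. Immediate early genes had 0.16 (0.03, 0.53 and 0.09), with ARC passing, and ERK feedback genes 0.10 (0.08, 0.39 and -0.07), with none passing. ARC was very low, at 0.05 to 0.23 CPM over the samples of batch 1 and 0.10 to 0.37 over those of batch 3. In batch 2 it held 0.23 to 0.41 CPM in EV, 0.97 to 1.53 in WT and 1.88 to 2.19 in MUT. DNA replication genes had -0.09 (0.06, -0.32 and 0.01), with none passing. Against EV and WT alone the medians had opposite signs for ERK feedback (0.263 and -0.037) and DNA replication genes (-0.216 and 0.055). They had the same sign for interferon (-0.171 and -0.38), mitosis (0.074 and 0.228) and immediate early genes (0.216 and 0.073). In batch 3 interferon, mitosis, replication and ERK feedback medians had the other sign. These calls ended without any of 20 samples for IFIT2, 21 for CCNB2, 12 of the 22 with a fit for ARC and the 3 MUT samples of batch 2 for AURKA. Mitochondrially encoded transcripts went from -0.29 in batch 1 to 0.18 and 0.13 in batches 2 and 3. Their share of all counts was 6.20% in MUT samples of batch 1 against 7.69% in EV and 7.21% in WT. It was 5.07%, 5.03% and 4.01% in batch 2, where WT stood lowest, and 4.76%, 4.43% and 4.19% in batch 3. The part of this in other results was not tested.

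Markers of the HEK293 cells were looked at because their medium was used. Of 10 such markers 6 were tested and 1 passed, where 3.49% of all genes tested passed. LHX1, a kidney transcription factor gene, rose by 1.58 ± 0.33 (adjusted p 0.014) from a very low level. The MUT samples of batch 3 held 0.550, 1.02 and 2.20 CPM against at most 0.370 in the others, those of batch 2 held 0.0799, 0.584 and 0.788 against at most 0.296, and those of batch 1 lay at 0.282 or less. MUT sample 3 of batch 3 thus stood far above the rest, and the call was kept without it. Among samples left out in turn, only the loss of MUT sample 1 of batch 2 ended the call. The summed level of the 10 markers overlapped between all media, and the part of HEK293 RNA in other results was not tested.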

How the data were processed

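Polyadenylated RNA was sequenced from 29 samples, and groups and batches came from the labels. The deposited values are estimated counts of Ensembl genes, not normalized, for which the authors used fastp and kallisto per the submitters' processing notes. Their versions, the build and the annotation are not given in the sources. Because kallisto apportions reads among similar transcripts, counts of closely related genes are uncertain, and 1014 of 22347 entries with at least 5 counts shared their values with another entry. Entries with no symbol held 2.69% of the counts.

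Counts were rounded, filtered with filterByExpr by medium, scaled by TMM and tested in R 4.3.3 by edgeR 4.0.16 (with limma 3.58.1) under a model of batch and medium, with Benjamini-Hochberg adjustment over all 20672 entries and 24 residual degrees of freedom. A gene passed at an adjusted p under 0.05. The test was first tried on simulated data. A log2 fold change is MUT minus the mean of EV and WT, ± its standard error. DESeq2 was version 1.42.0 and figures used matplotlib 3.10.9. No 2 samples of 1 batch and medium held the same library (33 pairs compared). Whether replicate numbers pair the samples is not settled by the values. Deviations of the 28 same-numbered pairs correlated from -0.17 to 0.19, and those of differently numbered pairs of a batch from -0.23 to 0.23. In batch 1 the same-numbered EV and WT pairs were at 0.10, 0.15 and 0.19, above every differently numbered EV and WT pair there. Same-numbered pairs of that batch were at -0.05, 0.05 and -0.02 for EV and MUT, and 0.14, -0.05, -0.12 and -0.11 for WT and MUT.

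Genes were named by rule: a fixed set of β-cell and stress genes, the 12 highest and 12 lowest passing changes at 5 CPM or more with one sign in every batch, genes apart in every batch, up to 4 passing and 2 other members of each of 39 lists, the 10 smallest p-values and the 5 smallest interaction p-values. Members and lists were chosen with earlier results of these data known. Of the genes named, HSP90B1, PDIA6, CALR, CANX, CRELD2, EIF2AK3, STT3A, DAD1, RPN2, GORASP2, TMBIM6, KCNH8, BTNL9, SAT1, ARG2, SGPP2, LPCAT3, KDM4A, PBX3 and AHSA2P fall outside that rule and were picked after their values were seen. Alternatives included other scalings, filters, tests, comparators and leaving out each batch or sample.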

Additional observations from a re-analysis of the deposited data

Results flagged for a closer look

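In groups of 4 to 10 samples, the highest or lowest sample was set against the gap to its neighbour (Dixon's test at 95%). Of 465 such groups over the named genes 9 had a sample that stood off. Chance gives about 1 in 20 in groups of 1 level, but groups over all batches mix batch levels, which can hide a far sample. The groups of 3 samples, EV of batch 1 and all of batches 2 and 3, were not checked on their own. The count of 9 is therefore not a rate of far samples. In batch 1, HSP90B1 was lowest in MUT sample 1 at 1184 CPM, AHSA2P was lowest in MUT sample 2 at 141.7 CPM, and GPX2 was highest in WT sample 4 at 1.29 CPM. WT sample 2 of batch 1 stood off for 3 genes, lowest for SSR1 at 118.1 CPM and SEC22B at 95.67 CPM and highest for SLIT2 at 0.715 CPM. Over all batches, GSTM3 was lowest among EV samples in sample 2 of batch 2 at 80.55 CPM, CCNB2 was lowest among MUT samples in sample 1 of batch 1 at 44.95 CPM, and LHX1 was highest among MUT samples in sample 3 of batch 3 at 2.20 CPM.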

How the results depend on the processing

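Against 722 genes with the test used, DESeq2 called 1583, no filter on low counts 280, voom with quality weights 315 (148 higher and 167 lower), EV alone as comparator 1160, WT alone 184, offsets for GC content and length (added after seeing the data) 1434, no batch 1 299, no batch 2 0 and no batch 3 4243. No batch term gave 0 (1505 at an unadjusted p under 0.05), summed profiles 0 and voom with an estimated correlation 0. DESeq2 size factors (819), total library size (559), a stricter filter (852) and EV and WT as 1 group (590) stayed within 1.5 times. Leaving out each sample gave 72 to 1459. With a replicate block the test called 4 genes (3866 at an unadjusted p under 0.05), MANF, CDH2, MEG3 and 1 entry with no symbol. Of the 77 passing genes named, the block thus kept 3. Whether replicate numbers pair the samples is not settled. The number of genes that differed between batches ran from 7780 to 9006. The number apart in every batch was 5 with no filter, 2 to 3 with other settings and 3 to 7 without each sample. The added count of genes with one direction in every batch ran from 46 to 55 with other settings and from 18 to 55 without each sample.

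Of the 77 passing genes named, DESeq2 kept 72, total library size 62, no filter 48, quality weights 39, EV alone 56, WT alone 31, no batch 1 25, no batch 2 none, no batch 3 74 of 76 and the offsets 74. No passing gene named reversed. Signs turned for genes that had not passed. SDF2L1 was 0.031 with quality weights, 0.0482 against WT alone, 0.0368 with offsets, 0.135 without batch 2 and -0.0438 to 0.0138 without each sample. CALR was 0.00837 with quality weights, 0.0457 against WT alone, 0.0132 with offsets, 0.0555 without batch 2, 0.00583 without batch 3 and -0.0263 to 0.00916 without each sample. XBP1 was -0.0031 with no batch term, -0.0243 against WT alone and -0.0532 without batch 1. ATF4 was -0.0045 with quality weights, and INS -0.0189 against EV alone and -0.109 without batch 3. Without batch 2, PDX1 was 0.0397, MAFA 0.107, NKX6-1 0.0386, SLC2A2 0.057 and CRELD2 0.0259. The cause was not tested. Depth was 26.2 to 40.2 M counts per sample, and genes under 1 CPM rest on few counts.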
